A study of Danio rerio with 12 samples.

Results

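The 100 genes that took the largest mean share of the sequenced reads in fluorescence-sorted macrophages of zebrafish larvae were examined. The share of a gene is its read count divided by all reads counted on genes in that sample, in percent. Of 31962 annotated genes in the count tables, the 100 with the highest mean share over all 12 samples were taken. Left out were 13 genes of the mitochondrial genome, found by a range of identifiers, and MPEG1, the macrophage gene whose promoter drives the fluorescent reporter. Mitochondrial genes with identifiers outside that range, such as any for ribosomal RNA, were not left out. The values that chose the genes are thus the shares themselves, and their height is given as a description. Because a longer transcript yields more reads, a share ranks genes by the reads they took and not by their number of transcripts.

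Larvae of the mpeg1.4:mCherry-F line, which carry a red fluorescent protein in macrophages, were studied at 3 dpf (days post fertilization). Either the synthetic glucocorticoid beclomethasone at 25 µM or its vehicle (0.05% DMSO) was given from 2 h before the tail was partly amputated or left intact, and was continued afterwards. The groups are Control (vehicle, intact), Amp (vehicle, amputated), Beclo (beclomethasone, intact) and Amp+Beclo (beclomethasone, amputated), with 3 samples each. Samples with the same number are taken to come from the same replicate experiment, which the labels do not state. For each sample, 100 to 150 pooled embryos were dissociated at 4 hpa (hours post amputation) in the presence of actinomycin D, which blocks transcription, and the red cells were sorted. All groups therefore share the reporter, the dissociation, the transcription block and the amplification of the RNA.

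Macrophages are phagocytes, and their abundant transcripts typically encode lysosomal proteases, lipid carriers, and the actin machinery used for crawling and engulfment. Glucocorticoids act through a nuclear receptor that activates and represses transcription, by binding DNA itself or by binding other transcription factors. Transcripts of contractile proteins, keratins and fibrillar collagens are in contrast textbook products of skeletal muscle, skin epithelium and connective tissue.

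Reads on genes numbered 9488569 to 18865019 per sample, and each of the 100 genes had between 1335 and 401052 reads in every sample, so that counting error was small beside the spread between samples. Reads outside genes made up 4.72% to 12.6% of all counted reads, and ambiguous reads 1.64% to 2.46%. Outside genes, Amp 3 (4.72%) and Amp 2 (6.55%) had the lowest values, and all other samples lay between 7.68% and 12.6%. Whether this difference between libraries bears on Amp against Control was not tested. MPEG1 itself took 0.0127% to 0.269% of the gene reads. Of the marker lists, the macrophage list (12 of 16 symbols matched, 17 genes) took 0.628% to 2.24% of the gene reads and the neutrophil list (7 of 9 matched) 0.0347% to 0.0823%. The keratinocyte list (10 of 10 matched) took 0.801% to 2.57%, and the muscle list (6 of 12 matched) 1.28% to 7.10%. Erythroid markers (6 of 10 matched) took 0.0886% to 0.394%. The lens (5 of 5), liver and yolk (8 of 8), neuron (4 of 7) and pigment (4 of 6) lists each stayed below 0.1%. Symbols with no match add nothing to these sums. No gene of the muscle, keratinocyte or macrophage list was at 0 in any sample.

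The 100 genes were therefore not a list of macrophage genes only. Grouped by known function after their values were seen, 21 encode proteins of skeletal muscle, 4 encode keratins and 4 encode chains of fibrillar collagens. A further 11 belong to macrophages and lysosomes, 12 to the non-muscle cytoskeleton, 10 to RNA and chromatin, and 8 to chaperones and protein processing. Energy metabolism had 7 members, transcription and immediate-early regulators 7 and translation 4, while 10 other named genes fit none of these groups and 2 had no name. All 6 muscle markers that were matched are members, as are 4 of the 17 macrophage marker genes, 3 of the 10 keratinocyte markers and none of the 8 neutrophil marker genes. The muscle group took 27.4% of the members' reads, the non-muscle cytoskeleton 13.3%, and the macrophage and lysosome group 8.94%. The genes are called here the 100 most-read genes.

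**Figure D1:**
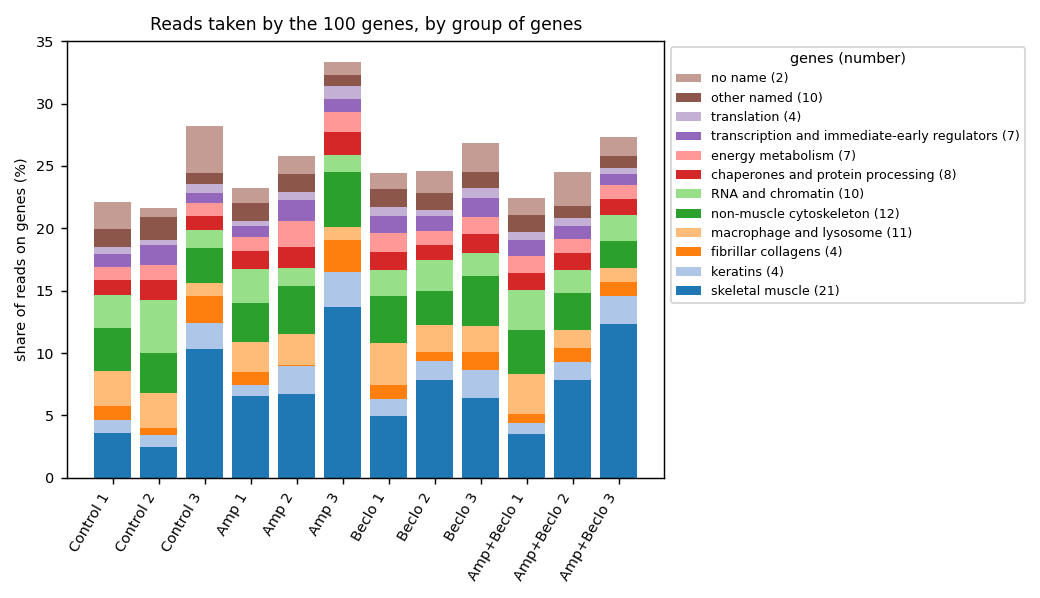
Stacked bars give, for each of the 12 samples, the share of all gene reads (percent, vertical axis) taken by the 100 genes, split into 12 groups of genes with the number of genes in brackets. The bar height runs from 21.6% (Control 2) to 33.4% (Amp 3), and the lowest segment, skeletal muscle, runs from 2.50% to 13.7%.

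Among the 10 genes with the highest mean share, 4 are muscle genes. actc1b, an alpha-actin of striated muscle, was first, with 1.69% of the gene reads on average. It took 0.739%, 0.730% and 2.01% in the Control samples, 1.46%, 2.72% and 3.18% in Amp, 1.22%, 1.67% and 1.51% in Beclo, with 0.835%, 1.55% and 2.61% in Amp+Beclo. Apart from Control 3, the Control samples lay below all Amp samples. The other muscle genes in the first 10 were myhz1.1, a fast myosin heavy chain (0.632%), MYL11, a fast myosin light chain (0.572%), and atp2a1, the calcium pump of the sarcoplasmic reticulum (0.445%). The cytoskeletal actins actb2 and actb1 had mean shares of 0.990% and 0.623%, the skin keratin krt4 0.925%, and the constitutive chaperone HSPA8 0.486%.

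The genes at ranks 2 and 3 were of a different kind. ENSDARG00000080337, which has no name in the gene table used here, took 1.60% on average. Whether ENSDARG00000080337 is a mitochondrial gene outside the range left out was not checked. The share of this gene was 1.98%, 0.520% and 3.64% in Control, 1.02%, 1.02% and 0.983% in Amp, 1.14%, 1.59% and 2.15% in Beclo, with 1.15%, 2.52% and 1.45% in Amp+Beclo, so that the Control samples spanned all others. malat1, a long noncoding RNA that is retained in the nucleus, took 1.198% on average. Its shares were 1.59%, 3.13% and 0.470% in Control, 1.60%, 0.457% and 0.131% in Amp, 0.843%, 1.44% and 0.645% in Beclo, with 2.04%, 0.903% and 1.14% in Amp+Beclo. Its highest sample (Control 2) and its lowest (Amp 3) differed 23.8-fold. The gene with the most reads was actc1b in 5 samples, ENSDARG00000080337 in 4 and malat1 in 3.

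At the lower end, ranks 98 to 100 were held by lgals3bp.1 (a secreted lectin-binding protein, 0.0908%), HNRNPAB (an RNA-binding protein, 0.0896%) and zgc:152830 (0.0891%). Just outside lay XBP1, a transcription factor of the unfolded protein response, with 0.0890%. CTSD, the lysosomal protease cathepsin D, had 0.0888%, and FKBP5, a co-chaperone of the glucocorticoid receptor, had 0.0882%. The border thus falls within a dense run of nearly equal means.

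Functional gene lists contributed very unequally. Of 94 genes listed under the actin and tubulin cytoskeleton, 14 were members, with actb2 as the highest. Besides actins and tubulins, these include genes of actin-binding proteins such as pfn1 and LCP1, and the muscle genes MYL11, MYL1 and tpma. Of 76 lysosomal genes 6 were members, led by PSAP, the precursor of the saposins that help degrade sphingolipids. Of 87 cytosolic ribosomal protein genes, RPL3 was the only member. The splicing and RNA-binding list gave 5 of 153 (highest DDX5, an RNA helicase), chaperones and protein folding 5 of 131 (HSPA8), and the macrophage markers 4 of 32 (apoeb, apolipoprotein E). Translation factors gave 3 of 87 (eef1a1l1, an elongation factor), glycolysis 3 of 32 (GAPDHS) and glucocorticoid-regulated genes 3 of 18 (CEBPB). Oxidative phosphorylation gave 2 of 135 (SLC25A5, the mitochondrial ADP/ATP carrier), histones and chromatin 2 of 32 (hmga1a), and iron storage 1 of 6 (fthl27, a ferritin). No gene for antigen presentation and complement (45 genes), no neutrophil marker (9) and no inflammatory mediator (19) was among the 100.

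The question of how large a part of the library these genes took in each group was answered by summing their shares. The 100 genes took 22.1%, 21.6% and 28.2% of the gene reads in the Control samples (mean 24.0% ± 3.65, SD, n = 3). In Amp they took 23.2%, 25.8% and 33.4% (27.4% ± 5.28, SD, n = 3). Beclo samples gave 24.4%, 24.6% and 26.8% (25.3% ± 1.36, SD, n = 3) and Amp+Beclo samples 22.4%, 24.5% and 27.3% (24.7% ± 2.46, SD, n = 3). Replicate 3 had the highest share in each group, and all groups overlapped. The highest and the lowest group mean, those of Amp and Control, differed by 3.47 percentage points, which is about the size of the pooled SD within groups (3.50).

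Within replicate experiments, the share was higher in Amp than in Control in 3 of 3, by 1.1001, 4.13 and 5.18 percentage points. It was lower in Amp+Beclo than in Amp in each of the 3, by differences of -0.829, -1.28 and -6.08 points. For Beclo minus Control the differences were 2.32, 2.93 and -1.33 points, and for Amp+Beclo minus Beclo -2.05, -0.0763 and 0.440 points, so that no direction was shared by the 3 experiments. No test was made of the summed share, because its genes were picked by their reads in these samples. Without replicate 3, Beclo had the highest group mean and Control the lowest, 2.63 points apart. Without replicate 2, Amp was the highest and Amp+Beclo the lowest, 3.45 points apart.

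On average, the skeletal muscle genes differed by 3.51 percentage points between Amp and Control, and all 100 genes together by 3.47. Other groups of genes were also higher on average, such as the non-muscle cytoskeleton (0.628 points) and keratins (0.619), each in 2 of the 3 experiments. Some were lower on average, such as RNA and chromatin (-0.933) and the genes with no name (-0.972). By experiment, RNA and chromatin differed by 0.119, -2.82 and -0.0984 points and the genes with no name by -0.971, 0.673 and -2.62. Neither direction was shared by the 3 experiments. The summed share of the muscle genes was 3.56%, 2.50% and 10.3% in Control, 6.55%, 6.68% and 13.7% in Amp, 4.92%, 7.87% and 6.40% in Beclo, with 3.50%, 7.85% and 12.3% in Amp+Beclo. Amp exceeded Control in each experiment, by 2.99, 4.18 and 3.36 points or 1.84-, 2.67- and 1.33-fold. The SD within Control (4.24 points) and within Amp (4.07) was larger than the mean difference. Control 3, Beclo 2, Amp+Beclo 2 and Amp+Beclo 3 lay above 2 of the 3 Amp samples. Together, the 29 muscle, keratin and collagen genes took 3.96% to 19.1% of the gene reads. The other 71 genes took 11.6% to 17.7%, and their share in Amp minus Control was -1.60, -0.989 and 0.727 points. Left without the 29 genes, the highest group mean was that of Beclo and the lowest that of Amp+Beclo, 1.78 points apart. The 6 genes of the muscle marker list are all members, so they are part of the muscle sum and no separate observation. They took 1.28% to 4.57% in Control, 3.03% to 7.10% in Amp, 2.45% to 3.68% in Beclo and 1.72% to 5.64% in Amp+Beclo. Whether these reads came from sorted muscle cells, fragments or free RNA was not tested. In pooled sorted cells, a different number of cells of a type and a different amount of RNA per cell cannot be told apart.

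**Figure D2:**
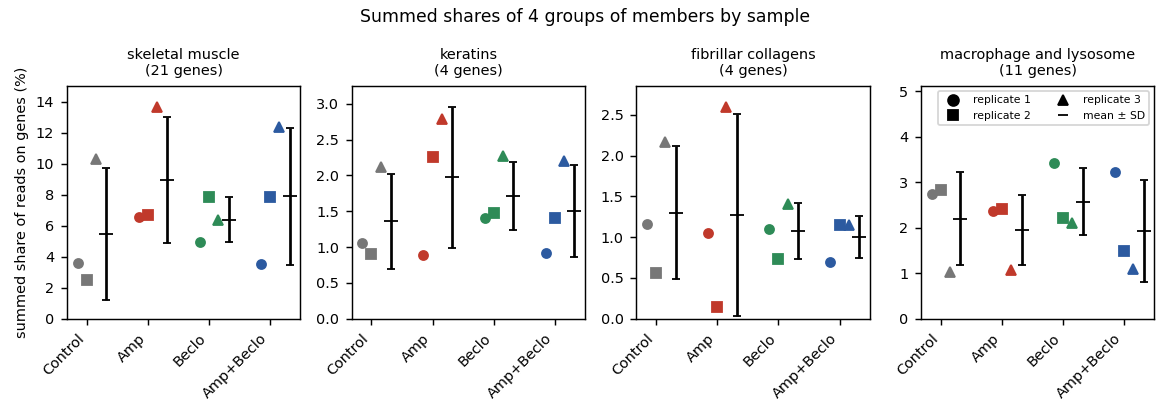
Summed share of gene reads (percent, vertical axis) of 4 groups of genes in each sample, with 1 marker shape per replicate experiment and the mean ± SD of 3 samples to the right of the points. In the muscle panel the 3 Amp samples lie at 6.55%, 6.68% and 13.7%, and Control 3 lies at 10.3%; in the macrophage panel Control 3 and Amp 3 are the lowest of their groups.

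The keratins krt4, krt5, krt1-19e and cyt1l together took 1.06%, 0.900% and 2.11% in Control and 0.883%, 2.26% and 2.79% in Amp. They took 1.41%, 1.47% and 2.27% in Beclo, with 0.922%, 1.40% and 2.20% in Amp+Beclo. Replicate 3 was again the highest of each group. The collagen genes col1a1a, COL1A2 and COL1A1, which encode chains of type I collagen of skin and bone, and COL2A1, the collagen of cartilage and notochord, were most uneven in Amp. Their sum was 1.05%, 0.147% and 2.60% in Amp, against 1.17%, 0.558% and 2.17% in Control, 1.09%, 0.727% and 1.41% in Beclo, with 0.698%, 1.15% and 1.14% in Amp+Beclo.

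Amp 2 stood apart from the other samples in the makeup of the muscle and collagen reads. Its ratio of myhz1.1 to actc1b reads was 0.0748, while the other 11 samples lay between 0.202 and 0.598. The ratio of atp2a1 to ckma, the muscle creatine kinase, was 0.192 in Amp 2 and 0.998 to 1.62 in the others. For col1a1a to krt4 it was 0.0398 in Amp 2 and 0.319 to 0.754 in the others. Thus actc1b, TNNI2 and ckma lay above their mean in Amp 2, while the 6 myosin heavy chain genes, atp2a1 and the 4 collagens had their lowest share of all samples there. Only 63 of the 100 genes were among the 100 highest of Amp 2 itself, the fewest of any sample, against 75 to 89 in the others. The main counts for Amp against Control are therefore also given without replicate experiment 2.

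The macrophage and lysosome genes took 2.75%, 2.83% and 1.03% of the gene reads in Control and 2.38%, 2.42% and 1.06% in Amp. They took 3.42%, 2.21% and 2.09% in Beclo, with 3.22%, 1.48% and 1.0997% in Amp+Beclo. The 3 samples with the largest muscle share, replicate 3 of Control, Amp and Amp+Beclo, were also the 3 with the smallest macrophage and lysosome share. The shares of a sample sum to a fixed total, so that a larger share of one group leaves less for the others. apoeb, which carries lipids, had shares of 0.639%, 0.502% and 0.204% in Control and 0.504%, 0.379% and 0.193% in Amp. Its shares were 0.787%, 0.381% and 0.390% in Beclo, with 0.685%, 0.289% and 0.227% in Amp+Beclo. The higher of both member copies of MFAP4, a marker gene of zebrafish macrophages (ENSDARG00000088745), took 0.455%, 0.619% and 0.140% in Control, 0.444%, 0.858% and 0.150% in Amp, 0.556%, 0.351% and 0.288% in Beclo, with 0.566%, 0.213% and 0.131% in Amp+Beclo. Neither gene separated the groups. The other members of this group ranged from PSAP (0.339% on average) down to lgals3bp.1, and include the progranulin gene grna and the proteases CTSB, ctsla and LGMN.

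Variation between samples was wide for most members. The coefficient of variation (CV) of the share over the 12 samples had a median of 43.4% over the 100 genes, and 96 of them varied more than 2-fold and 46 more than 5-fold between their lowest and highest sample. The most even genes were the chaperone HSP90AB1 (CV 15.8%, shares from 0.114% to 0.194%), the poly(A)-binding protein gene pabpc1a (18.1%) and HSPA8 (19.4%, 0.375% to 0.655%). COL2A1 had the highest CV, 82.2%, with shares from 0.0122% in Amp 2 to 0.331% in Control 3. It was followed by ctsl.1, a cathepsin L protease (79.1%), and TNNC2, a fast troponin C (76.8%). Membership varied accordingly: 35 of the 100 genes were among the 100 highest in all 12 samples, while 200 genes were so in at least 1 sample. By group means, 93 of the 100 were among the 100 highest of Control, 86 of Amp, 92 of Beclo and 89 of Amp+Beclo.

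**Figure D3:**
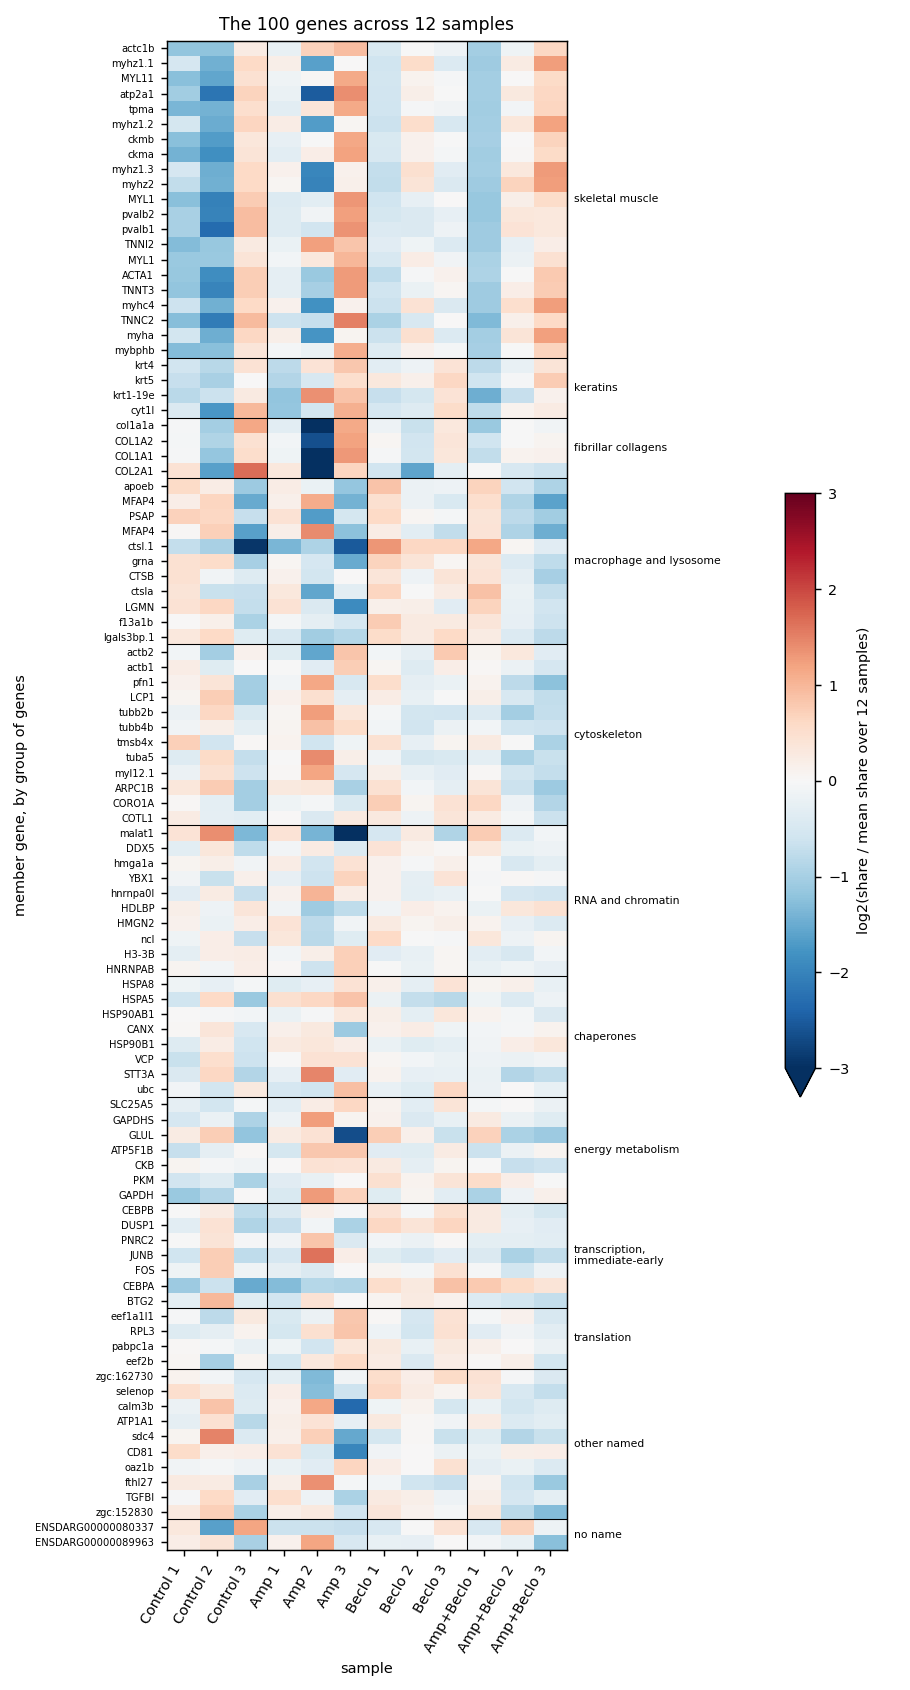
Each row is 1 of the 100 genes, ordered by group of genes and then by rank, and each column is 1 sample. Color gives the log2 ratio of the gene's share in that sample to its mean share over 12 samples, from -3 (blue, with lower values drawn at the end of the scale) to 3 (red). The muscle rows are blue in Control 1, Control 2 and Amp+Beclo 1 and red in Amp 3, the collagen rows are darkest in Amp 2, and ctsl.1 and CEBPA are blue in the 6 vehicle samples.

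Amputation was examined by comparing Amp with Control for each gene, with edgeR's quasi-likelihood test on all genes and the replicate experiment as a block. All 100 genes passed the filter on low reads in this and every other comparison. Only 3 of them passed an adjusted p of 0.05 and a fold change of 2, and all 3 were higher in Amp: TNNI2, ckma and GAPDH. Over all 22107 genes tested, 2.46% passed in either direction and 1.14% passed as higher, so that 3 of 100 is close to the background. TNNI2, the fast troponin I of the thin filament, had shares of 0.0705%, 0.0786% and 0.208% in Control and 0.151%, 0.411% and 0.311% in Amp. It was higher in Amp in each experiment, and its fitted log2 fold change was 1.69 (standard error, SE, 0.48, edgeR adjusted p = 0.0281). The share of ckma was 0.132%, 0.0979% and 0.458% in Control and 0.285%, 0.408% and 0.815% in Amp, and its fitted log2 fold change was 1.68 (SE 0.50, edgeR adjusted p = 0.0369). GAPDH, a glycolytic dehydrogenase, took 0.0484%, 0.0570% and 0.106% in Control and 0.0762%, 0.255% and 0.170% in Amp, a log2 fold change of 1.51 (SE 0.46, edgeR adjusted p = 0.0484). By mean share, GAPDH ranked 50 in Amp but 125 in Control, and its rank was 100 with Beclo and 93 with Amp+Beclo, so that its place among the 100 rests largely on Amp and its difference from Control is in part set by the choice of genes. The samples of Amp and Control overlapped for all 3 genes because of Control 3. None of the 3 calls was made without replicate 2 or without replicate 3. Without replicate 1, 17 members were called, 16 of them higher, against 1508 of all 20322 genes tested. With no replicate block none was called, and DESeq2 called 19, all higher, against 826 of all 22107 genes.

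The direction of the members as a whole differed from that of all genes, which is given as a description. The genes were chosen by a mean share that includes the Amp samples, which favors genes high in Amp. Members that vary together are also not independent. The median log2 fold change was 0.50 over the 100 genes and -0.11 over all genes tested, and 83 of the 100 had a positive value, against 44.0% of all genes. Without replicate 2 the median over the members was 0.57 with 89 positive, and without replicate 3 it was 0.36 with 72 positive. At an unadjusted p of 0.05, 28 members passed, against 18.2% of all genes. That count was 1 without replicate 2, 15 without replicate 3, 43 without replicate 1 and 3 with no replicate block. The direction depends on the scaling as well: with shares of total reads in place of TMM normalization, the median of all genes moved to -0.45 and that of the members to 0.14, with 57 positive. The 3 calls were then of TNNI2 and ckma as higher and of malat1 as lower. The TMM factors of Amp 2 (0.776) and Amp 3 (0.752) were the lowest, and those of all other samples lay between 0.926 and 1.15. The members were mostly positive in Beclo against Control as well, 87 of the 100 against 47.3% of all genes. Their median there was 0.37, against -0.04 for all genes. In Amp+Beclo against Control 55 were positive, against 49.0% of all genes, with medians of 0.05 and -0.01.

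By group of genes, all 21 muscle genes had positive log2 fold changes, from 0.25 to 1.69 with a median of 1.26 (15 of the 21 with total-read scaling, median 0.90), and 14 of the 21 passed an unadjusted p of 0.05. Without replicate 2 all 21 were again positive, with a median of 1.096, but none passed the unadjusted p, and with no replicate block 1 did. The positive sign was not particular to Amp. All 21 were also positive in Beclo against Control (median 0.67) and in Amp+Beclo against Control (median 0.66), where none passed the unadjusted p. These comparisons share the Control samples. In Amp against Control, the myosin heavy chains gave the lowest values, such as 0.33 for myhz1.1 and 0.28 for myhz2 (-0.03 and -0.08 with total-read scaling), and TNNI2 and ckma the highest. actc1b had 1.53 (SE 0.56, edgeR adjusted p = 0.108) and MYL11 1.48 (SE 0.51, edgeR adjusted p = 0.0857). Energy metabolism had a median of 0.83 over 7 genes, translation 0.69 over 4, chaperones 0.66 over 8 and the non-muscle cytoskeleton 0.56 over 12. The macrophage and lysosome genes lay closer to the all-gene median of -0.11, at 0.16 over 11 genes (-0.19 with total-read scaling), and the collagens below it, at -0.28 over 4 genes. Both moved with 1 replicate, the collagens to 0.48 without replicate 2 and the macrophage and lysosome genes to -0.14 without replicate 3. Of the immediate-early genes, JUNB, a subunit of the AP-1 transcription factor, took 0.112%, 0.278% and 0.0997% in Control and 0.118%, 0.521% and 0.192% in Amp. Its log2 fold change was 1.01 (SE 0.47, edgeR adjusted p = 0.231). malat1 had the lowest value of all members, -1.18 (SE 0.55, edgeR adjusted p = 0.223).

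**Figure D4:**
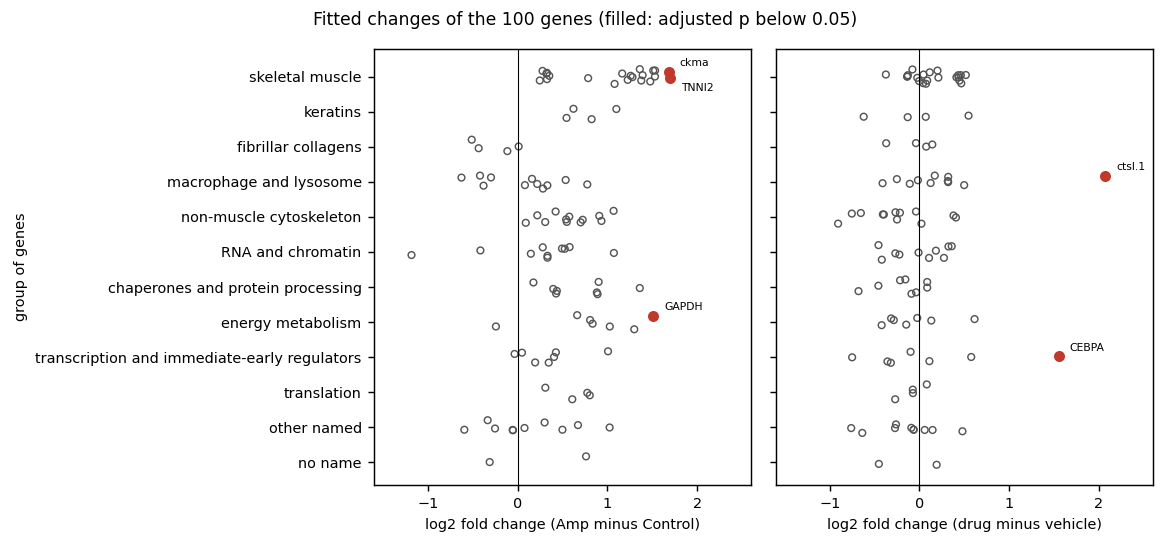
Fitted log2 fold changes of the 100 genes (horizontal axes), by group of genes (vertical axis, points spread vertically for legibility), for Amp minus Control (left) and for the 6 beclomethasone samples minus the 6 vehicle samples (right). Filled red points passed an adjusted p of 0.05 in edgeR: TNNI2, ckma and GAPDH on the left, ctsl.1 and CEBPA on the right, while the muscle genes lie between 0.25 and 1.69 on the left and between -0.38 and 0.52 on the right.

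The wider pathways of these members were read from the gene lists. Of 32 glycolytic genes measured, 6 were higher in Amp and none lower, a share of 18.8% (2.46% over all genes), with a median log2 fold change of 0.94. None of the 6 was called without replicate 2, without replicate 3, with no replicate block or when all 12 samples were fitted together, while 12 were without replicate 1, and total-read scaling left 2. The members GAPDHS and PKM, which encodes pyruvate kinase, did not pass the adjusted p. Their 3 Amp samples were above all 3 Control samples. For GAPDHS these were 0.221%, 0.590% and 0.261% against 0.173%, 0.215% and 0.130%, and for PKM 0.0975%, 0.107% and 0.125% against 0.0839%, 0.0942% and 0.0640%. They were the only members of which this held, and over all genes it held for 2.37%. The only member with all Amp samples below all Control samples was lgals3bp.1, a pattern that held for 6.32% of all genes. Its shares were 0.0653%, 0.0437% and 0.0498% in Amp against 0.113%, 0.137% and 0.0705% in Control. Ranked by mean share, lgals3bp.1 was 71 in Control and 66 in Beclo but 216 in Amp and 112 in Amp+Beclo. The difference of lgals3bp.1 between Amp and Control is thus in part set by the choice of genes. Of 132 nuclear genes for oxidative phosphorylation 9 were higher in Amp and 1 lower (7.58%, against 2.46% over all genes), with a median of 0.96. None of these was called without replicate 2 or 3, with no block or in the joint fit, 68 were higher without replicate 1, and 1 was with total-read scaling. Among 87 cytosolic ribosomal protein genes none passed the adjusted p in edgeR, although 86 had positive values and the median was 0.67, and 43 were higher without replicate 1. In Beclo against Control 86 of these were positive too (median 0.23), as were 118 of the 132 oxidative phosphorylation genes (median 0.36). In Amp+Beclo against Control 10 and 85 were positive (medians -0.14 and 0.06). In Amp against Control, 2 of 74 lysosomal genes were lower and none higher, which is 2.70% and close to the 2.46% of all genes. Their median was -0.07, and neither call was made without replicate 2 or 3.

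The groups with the drug were next compared with Control. In the comparison of Beclo with Control, no member passed in edgeR, against 0.172% of all genes. At an unadjusted p of 0.05, 8 members and 5.24% of all genes passed (2, 36 and 11 members without replicate 1, 2 and 3). DESeq2 called 4 members (krt5, ctsl.1, PKM and CEBPA), against 241 of all 22127 genes. ctsl.1 had the largest value, a log2 fold change of 2.56 (SE 0.48, edgeR adjusted p = 0.0624), followed by CEBPA with 1.83 (SE 0.42, edgeR adjusted p = 0.163). When replicate 2 was left out edgeR called 4 members, DUSP1, ctsl.1, PKM and CEBPA, against 140 of all 21357 genes. Between Amp+Beclo and Control, again no member passed in edgeR, against 0.419% of all genes. An unadjusted p of 0.05 was passed by 3 members and 7.22% of all genes (2, 17 and 1 members without replicate 1, 2 and 3). DESeq2 called ctsl.1 and CEBPA, against 369 of all 22202 genes. Without replicate 2, edgeR called 5, against 664 of all 21489 genes. Of the 5, ctsl.1, PKM and CEBPA were higher and ENSDARG00000080337 and col1a1a lower. By mean share, PKM ranked 106 in Control and 80 in Amp but 49 in Beclo and 46 in Amp+Beclo, so that its difference from Control is in part set by the choice of genes.

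Both drug groups were then set against both vehicle groups in a single fit of the 12 samples, a comparison added after the data had been seen. ctsl.1 and CEBPA were called as higher with beclomethasone and no member as lower, against 1.08% of 21979 genes in either direction and 0.992% as higher. The share of ctsl.1 was 0.0990%, 0.0837% and 0.0216% in Control and 0.0626%, 0.0855% and 0.0284% in Amp. It reached 0.408%, 0.253% and 0.252% in Beclo, with 0.367%, 0.169% and 0.130% in Amp+Beclo. Every drug sample lay above every vehicle sample, and the log2 fold change was 2.07 (SE 0.35, edgeR adjusted p = 0.00730). CEBPA, a transcription factor of myeloid cells, took 0.0502%, 0.0682% and 0.0377% in Control, 0.0431%, 0.0589% and 0.0567% in Amp, 0.154%, 0.130% and 0.197% in Beclo, with 0.185%, 0.160% and 0.140% in Amp+Beclo. Here too all 6 drug samples lay above all 6 vehicle samples, with a log2 fold change of 1.56 (SE 0.30, edgeR adjusted p = 0.0156). No other member had this pattern in either direction, and over all genes it held for 0.96% as higher. At an unadjusted p of 0.05, 7 members and 9.49% of all genes passed, and without replicate 1, 2 and 3 the members passing were 11, 5 and 3.

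Both genes owe their place among the 100 to the drug samples. By mean share, ctsl.1 ranked 134 in Control and 185 in Amp but 25 in Beclo and 33 in Amp+Beclo, and CEBPA ranked 202, 218, 48 and 43. A gene that is high in 1 arm only must differ between the arms to be a member, so their number says nothing of the members as a group. Neither was called when replicate 1 or replicate 3 was left out, and without replicate 2 only ctsl.1 was. Without the block only CEBPA was called. The direction was higher in each of these fits, with log2 fold changes down to 1.74 for ctsl.1 and 1.31 for CEBPA.

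**Figure D5:**
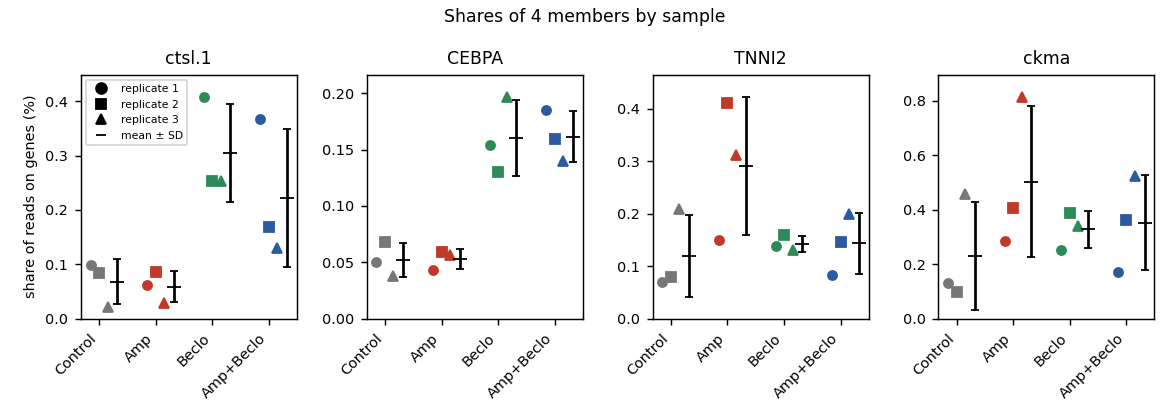
Share of gene reads (percent, vertical axes) of ctsl.1, CEBPA, TNNI2 and ckma in the 12 samples, with 1 marker shape per replicate experiment and the mean ± SD of 3 samples beside the points. For ctsl.1 the 6 drug samples span 0.130% to 0.408% and the 6 vehicle samples 0.0216% to 0.0990%; for TNNI2 and ckma, Control 3 lies within the range of Amp.

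Other genes known as targets of glucocorticoids did not separate in this way among the members. DUSP1, a phosphatase that inactivates MAP kinases, took 0.179%, 0.299% and 0.120% in Control and 0.138%, 0.212% and 0.116% in Amp. It took 0.341%, 0.291% and 0.348% in Beclo, with 0.271%, 0.188% and 0.175% in Amp+Beclo. Over both wound states its log2 fold change was 0.58 (SE 0.31, edgeR adjusted p = 0.601). CEBPB, a related transcription factor and the highest member of the glucocorticoid list, took 0.274%, 0.326% and 0.163% in Control, 0.206%, 0.305% and 0.269% in Amp, 0.366%, 0.270% and 0.387% in Beclo, with 0.334%, 0.225% and 0.193% in Amp+Beclo. Its log2 fold change was 0.11 (SE 0.32, edgeR adjusted p = 0.946), and -0.19 without replicate 1. Of the 18 genes of that list, 6 were higher with the drug over both wound states and none lower, CEBPA among them. Without replicate 1, 2 and 3 the list had 2, 2 and 3 higher genes. FKBP5, which missed the 100 by 3 ranks, took 0.0104% to 0.0245% in 5 vehicle samples and 0.00808% in the sixth (Amp 2), and 0.127% to 0.186% in the drug samples.

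The muscle genes showed no such split with the drug. Over both wound states their log2 fold changes ran from -0.38 to 0.52 with a median of 0.09, and none passed even the unadjusted p. Their sign followed single replicates: all 21 were negative without replicate 2 (-0.59 to -0.18), and 20 were positive without replicate 3 (median 0.51). Several cytoskeletal members had negative values. tubb2b, a beta-tubulin, took 0.148%, 0.254% and 0.121% in Control, 0.173%, 0.397% and 0.209% in Amp, 0.159%, 0.113% and 0.113% in Beclo, with 0.126%, 0.0820% and 0.101% in Amp+Beclo. Its log2 fold change was -0.91 (SE 0.34, edgeR adjusted p = 0.342). fthl27 took 0.117%, 0.116% and 0.0498% in Control, 0.111%, 0.253% and 0.0940% in Amp, 0.0928%, 0.0652% and 0.0602% in Beclo, with 0.105%, 0.0650% and 0.0456% in Amp+Beclo. Its log2 fold change was -0.76 (SE 0.32, edgeR adjusted p = 0.446). By mean share, fthl27 ranked 67 in the vehicle samples but 124 in the beclomethasone samples, so that its difference is in part set by the choice of genes. For both genes the highest sample was Amp 2.

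Whether the response to amputation differed with beclomethasone was examined by comparing Amp+Beclo with Amp and with Beclo, and by the interaction of both factors. No member passed in edgeR in Amp+Beclo against Amp (0.299% of all genes passed), in Amp+Beclo against Beclo (0.0046%) or in the interaction (0%). At an unadjusted p of 0.05, 7, 16 and 21 members passed in these comparisons, against 9.23%, 9.28% and 10.9% of all genes, and DESeq2 called none in any of the 3. Without replicate 2 these counts of members were 1, 4 and 4, without replicate 3 they were 0, 2 and 9, and without replicate 1 they were 22, 15 and 13. The medians that follow are descriptions, since the choice by share favors genes that are high in any of the groups. Relative to Amp, 23 members had a positive value in Amp+Beclo, against 56.6% of all genes. The median log2 fold change was -0.43 over the members and 0.14 over all genes. It was -0.50 over the members without replicate 2 and -0.13 without replicate 3. Relative to Beclo it was -0.24 over the members and 0.06 over all genes, with 18 members positive, against 54.7% of all genes. Here most groups of genes had negative values only, among them the 12 genes of the non-muscle cytoskeleton (median -0.42) and the 7 transcription and immediate-early regulators (-0.51). Of the 21 muscle genes 12 were positive. The 11 macrophage and lysosome genes were all negative too, with a median of -0.67, and 6 of them passed the unadjusted p. Without replicate 2 and without replicate 3, 10 of the 11 were negative and 2 and 0 passed. grna, for instance, took 0.183%, 0.108% and 0.0842% in Amp+Beclo and 0.226%, 0.184% and 0.149% in Beclo, a log2 fold change of -0.74 (SE 0.23, edgeR adjusted p = 0.528).

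In the interaction, 93 of the 100 members had a negative value, which means that Amp+Beclo minus Beclo lay below Amp minus Control. For the macrophage and lysosome genes, the medians of these differences were -0.67 and 0.16. A positive value was found for 7 members and 54.5% of all genes, and with total-read scaling for 26 members and 72.3% of all genes. The members' median was -0.88, against 0.12 for all genes, and with total-read scaling -0.37 against 0.58. Without replicate 2 it was -1.17 with 12 positive, and without replicate 3 it was -0.63 with 21 positive. TNNI2 had -2.03 (SE 0.63, edgeR adjusted p = 0.451) and GAPDH -1.90 (SE 0.60, edgeR adjusted p = 0.451). The 8 muscle genes that passed the unadjusted p of 0.05 were joined by 5 of the non-muscle cytoskeleton and 4 of energy metabolism. None of the muscle genes passed it without replicate 1 or without replicate 2. Since the interaction contains the same Amp and Control samples as the comparison above, its sign for these genes is not a separate observation. The choice of the genes by their share bears on that sign as well. Taken over both drug states, amputation gave no called member in edgeR (0.15% of all genes), with 7 members and 4.48% of all genes at an unadjusted p of 0.05 (3, 1 and 1 members without replicate 1, 2 and 3), and none called by DESeq2. All 21 muscle genes were positive in that comparison, from 0.22 to 0.71. It contains the same Amp and Control samples, so this sign is not a separate observation either. In Amp+Beclo against Beclo alone, 12 of the 21 were positive, with a median of 0.08.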

How the data were processed

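The authors amplified the RNA with the SMART-seq V4 kit, sequenced 50-nucleotide reads on an Illumina HiSeq instrument and mapped them to GRCz10 (annotation version 80). The submitters' processing notes name TopHat2 2.1.0 and DESeq 1.26.0, and the counting program is not given in the sources used here. The deposited values are raw read counts per Ensembl gene, with no normalization or filter, and no molecular identifiers. Rows that name no gene (reads outside genes, 4.72% to 12.6%, and ambiguous reads, 1.64% to 2.46%) were left out of all sums. Rows for reads aligned to several places hold 0, so near-identical genes are uncertain.

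The 12 samples were grouped by their labels. Shares were computed with Python 3.11.15 and pandas 2.3.3. Genes were named from a table that matched 26121 of 31962 identifiers. Symbols are given as in that table, whose capitals do not mark another species, and MFAP4 and MYL1 each name 2 members. No sequences were used. Tests used edgeR 4.0.16 in R 4.3.3 (TMM, estimateDisp, glmQLFit, glmQLFTest), with at least 30 reads over the 6 samples compared or 60 over 12, and Benjamini-Hochberg adjustment over all genes tested. A call required an adjusted p below 0.05 and a fold change above 2 (for the interaction the adjusted p only). Standard errors (SE) are the log2 fold change divided by the root of its F value. The fits were tested on simulated data. DESeq2 1.42.0, RLE and total-read scaling, no filter, no block, no fold cutoff, a joint fit of all samples and leaving out each replicate were alternatives.

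Samples were paired by replicate number, as the methods describe 3 replicate experiments and the labels number the samples. Deviations from group means correlated at 0.55 on average for same-numbered Amp and Control samples, 0.0249 for Beclo and Control, 0.108 for Amp+Beclo and Control, 0.0625 for Amp+Beclo and Amp, and 0.129 for Amp+Beclo and Beclo (across 21979 genes, which are not independent). For Amp+Beclo and Control, the same-numbered pairs ran from -0.377 to 0.464. Samples of a group differed by more than sampling noise.

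The members, groups of genes and lists were chosen with earlier results of these data known, and the inflammatory list holds genes that the study named from these samples. Genes named in the text are the 10 highest members, the highest member of each list, the 3 largest rises and falls past an adjusted p of 0.05 in each pairwise comparison, the 3 genes on either side of rank 100, and the 3 highest and lowest CVs. Any other gene with values was chosen after its values were seen. A permutation test planned for the summed share was not run, since the members were chosen by their share. Comparisons with Control share the Control samples.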

Additional observations from a re-analysis of the deposited data

How the results depend on the processing

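The 3 members called in Amp against Control became 0 with no replicate block, 0 when all 12 samples were fitted together, 7 with no filter on low counts and 19 with DESeq2, and ranged from 0 to 17 when 1 replicate experiment was left out. The 0 members of Beclo against Control became 4 with DESeq2, 1 with RLE normalization and 2 with no filter, and ranged from 0 to 4 when 1 replicate was left out. The 0 members of Amp+Beclo against Control became 2 with DESeq2 and 2 with no filter, and ranged from 0 to 5. The 2 members called for the drug over both wound states became 1 with no replicate block and ranged from 0 to 1. Amp+Beclo against Amp, Amp+Beclo against Beclo, the interaction and amputation over both drug states kept 0 calls under every alternative run, and omitting the fold-change cutoff altered no edgeR count. The block changed no other count of member calls. Total-read scaling reversed myhz1.1 (-0.0324) and myhz2 (-0.0843) in Amp against Control, and CEBPB ranged from -0.19 without replicate 1 to 0.39 without replicate 2 for the drug over both wound states. The other genes given with a fold change and SE kept their sign in all fits run. Over all genes, the 543 calls of Amp against Control became 0 with no block, 7 in the joint fit, 826 with DESeq2, 1508 without replicate 1, 66 without replicate 2 and 2 without replicate 3. Those of Beclo against Control ran from 3 without replicate 1 to 241 with DESeq2. Those of Amp+Beclo against Control ran from 21 with total-read scaling to 664 without replicate 2. The difference of 3.47 percentage points between the highest and lowest group mean of the summed share lay between 1.78 and 4.33 under other denominators and choices of genes, and between 2.63 and 4.66 when 1 replicate was left out. With no test of the summed share, its fit without the block was not run. Shares limit these results in that a rise of the muscle genes lowers all others. Reads of near-identical copies (myosin heavy chains, actins, tubulins, MFAP4) may be split between genes.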
